A study of Mus musculus with 2 samples.

Results

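The let-7 family of microRNAs (miRNAs) was examined in the forebrain of mouse embryos at 10.5 days of development, through 7 of its loci: Mirlet7b, Mirlet7d, Mirlet7g, Mirlet7i, Mir98, Mirlet7a-2 and Mirlet7c-1. They were taken by name from the 1973 miRNA genes of the count files, as let-7 loci with a 5′ arm of their own (Mirlet7b, Mirlet7d, Mirlet7g, Mirlet7i and Mir98) or one shared with another locus (Mirlet7a-2 and Mirlet7c-1). The tissue came from untreated embryos of strain B6NCrl, male and female mixed, and formed 1 group of 2 small RNA libraries with no second condition. Replicate 1 was made from the pooled forebrains of 69 embryos and replicate 2 from those of 51 embryos, so each value is an average over a pool. The labels name the pools as separate biological samples, and a difference between them is a difference between these 2 libraries only. In bulk tissue, fewer cells of a type and less RNA per cell cannot be told apart.

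A miRNA is cut from a hairpin precursor by Drosha and Dicer, and the arm that is kept pairs with target mRNAs through its seed, bases 2 to 8. The let-7 miRNAs are known for their accumulation as cells leave the dividing, undifferentiated state, and for repression of Lin28a, Hmga2 and cell cycle genes. In stem cells and early neuroepithelium, LIN28 proteins bind the loop of the let-7 precursors, block their cutting and have them tailed with uridines and destroyed, so that a let-7 gene can be transcribed without giving mature miRNA.

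The mature sequences are shown because they decide which reads could be counted. All 7 loci were matched in RefSeq's table for GRCm38.p6, the assembly that mm10 names. Each 5′ arm has 22 bases. Capitals mark the seed, GAGGUAG, which all 7 loci share.

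let-7a-5p (Mirlet7a-2): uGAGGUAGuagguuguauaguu
let-7b-5p (Mirlet7b): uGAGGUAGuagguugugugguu
let-7c-5p (Mirlet7c-1): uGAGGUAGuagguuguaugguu
let-7d-5p (Mirlet7d): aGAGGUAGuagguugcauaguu
let-7g-5p (Mirlet7g): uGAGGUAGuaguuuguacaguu
let-7i-5p (Mirlet7i): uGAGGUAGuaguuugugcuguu
miR-98-5p (Mir98): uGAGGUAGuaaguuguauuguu

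Outside the seed the arms differ in few bases. With positions counted from 1 at the 5′ end and let-7a as the reference, let-7c differs by A19G and let-7b by A17G and A19G. Let-7d differs by U1A and U16C, let-7g by G12U and U18C, and miR-98 by G11A and A19U. Let-7i differs most, by G12U, A17G, U18C and A19U. The whole let-7a arm also lies in the hairpin of Mirlet7a-1, and the whole let-7c arm in that of Mirlet7c-2. A read of the whole of either arm fits more than 1 place in the genome, and such reads were tallied apart from the genes, so the counts of Mirlet7a-2 and Mirlet7c-1 are lower limits that hold only reads placed at 1 locus. The 3′ arms of these 2 loci were found in no other hairpin of the table. Which arm a counted read came from is not recorded in the counts.

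The loci are spread over 6 chromosomes (mm10, 1-based, GENCODE M21). Mirlet7g (ENSMUSG00000065440.1) lies at 106178840 to 106178927 of chromosome 9, plus strand, in an intron of Wdr82, which encodes a subunit of a histone methyltransferase complex. Mirlet7i (ENSMUSG00000065406.2) lies at 122985640 to 122985724 of chromosome 10, minus strand, in an exon of the transcribed pseudogene D630033A02Rik. Mirlet7d (ENSMUSG00000065453.1) lies at 48536012 to 48536114 of chromosome 13, minus strand, in an exon of a long non-coding RNA that also holds Mirlet7f-1 and Mirlet7a-1. Mir98 (ENSMUSG00000065536.2) lies at 151913214 to 151913321 of chromosome X, plus strand, in an intron of the ubiquitin ligase gene Huwe1, 785 bases from Mirlet7f-2. Mirlet7b (ENSMUSG00000065564.1) lies at 85707319 to 85707403 of chromosome 15, plus strand, in an exon of the non-coding RNA Lncppara, 621 bases from Mirlet7c-2. Mirlet7a-2 (ENSMUSG00000092770.1) lies at 41536716 to 41536811 of chromosome 9, plus strand, 5211 bases from Mir100, in introns of non-coding transcripts. Mirlet7c-1 (ENSMUSG00000065557.2) lies at 77599657 to 77599750 of chromosome 16, plus strand, in an intron of the non-coding host Mir99ahg, 656 bases from Mir99a.

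Replicate 1 held 3256070 counts on the strand of the genes and replicate 2 held 3574530, the totals to which CPM, each library's counts scaled to a common total of gene counts, refer. Reads with several possible places in the genome, 2577249 and 2780180 of them, were tallied apart from the genes. Of the miRNAs listed for forebrain progenitors, Mir92b had 19407 and 17048 CPM and Mir130a 32697 and 31134 CPM in replicates 1 and 2. Mir130a is not taken here as a marker of these cells alone. Of the same list, Mir9-3 had 363 and 315 CPM and Mir9-2 had 5.84 and 5.32 CPM, both uncertain for their several loci. The neuron miRNA Mir124a-2 had 4.61 and 5.04 CPM, was named after its values were seen and is uncertain, as its mature sequence is made from several loci.

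Mirlet7g and Mirlet7i held most of the counts placed at the 7 loci. Mirlet7g had 16213 counts (4979 CPM) in replicate 1 and 11070 counts (3097 CPM) in replicate 2, a mean of 4038 ± 1331 CPM (SD, n = 2), and ranked 51st of all 1973 genes. Mirlet7i had 6909 counts (2122 CPM) and 4143 counts (1159 CPM), a mean of 1640 ± 681 CPM, and ranked 88th. Both libraries of Mirlet7g lay above both of Mirlet7i, by 2.35-fold within replicate 1 and 2.67-fold within replicate 2.

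Mirlet7d and Mir98 formed a middle pair. Mirlet7d had 1275 counts (392 CPM) in replicate 1 and 787 counts (220 CPM) in replicate 2, a mean of 306 ± 121 CPM (SD, n = 2). Mir98 had 986 counts (303 CPM) and 649 counts (182 CPM), a mean of 242 ± 86 CPM. Their ranges overlapped, although Mirlet7d was the higher within each library, by 1.29-fold and 1.21-fold.

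The remaining loci had few counts. Mirlet7a-2 had 48 counts (14.7 CPM) and 36 counts (10.1 CPM), and Mirlet7c-1 had 44 counts (13.5 CPM) and 31 counts (8.67 CPM). The levels of this pair overlapped, and both are lower limits. Mirlet7b had 26 counts (7.99 CPM, 95% exact interval 5.22 to 11.7) and 12 counts (3.36 CPM, 1.73 to 5.86). In these counts it was the lowest of the 7 loci, although no other hairpin of the table holds its 5′ arm. The intervals of Mirlet7b and Mirlet7a-2 (10.9 to 19.5 and 7.05 to 13.9 CPM) overlapped in replicate 1 and not in replicate 2. Of the 21 pairs of loci, 19 had CPM ranges that did not overlap between the libraries, and the exceptions were Mirlet7d with Mir98 and Mirlet7a-2 with Mirlet7c-1. No such share was taken over pairs of other genes, so this count is not particular to the family. Any pair with Mirlet7a-2 or Mirlet7c-1 involves a lower limit and does not give an order of true levels. Per base of the 5′ arm, levels ran from 184 CPM for Mirlet7g to 0.258 for Mirlet7b. As all the 5′ arms have 22 bases, this division could not change the order. It also takes each counted read as one of the 5′ arm, which the counts do not record.

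**Figure D1:**
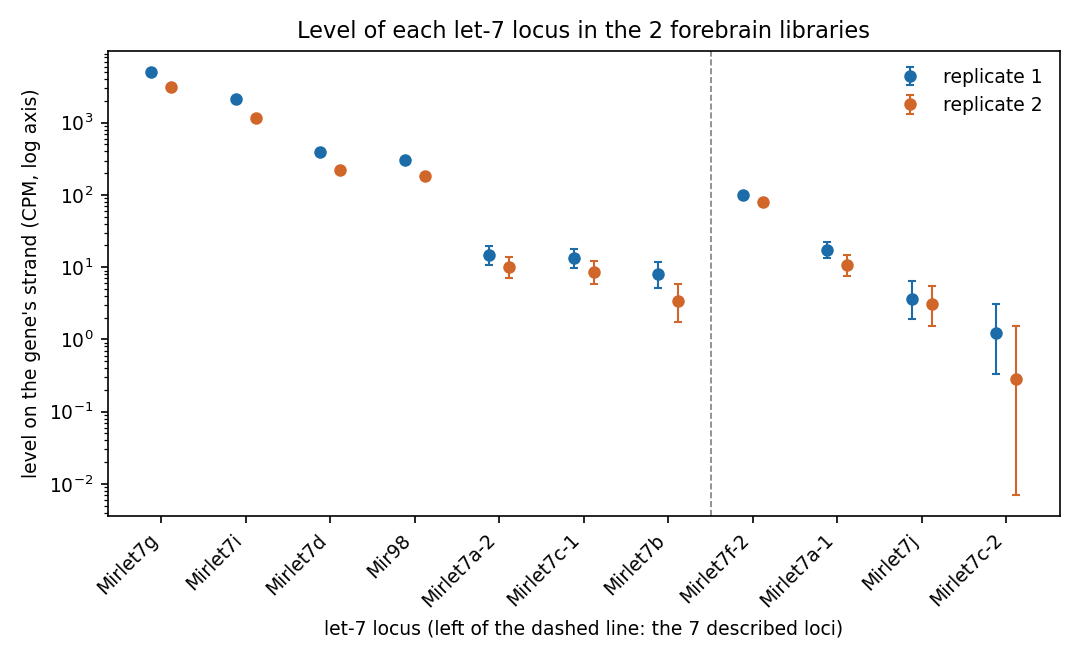
Level (CPM on the strand of the gene, log axis) of the 7 loci and, right of the dashed line, of 4 other counted let-7 loci in each library; points are single libraries and bars 95% exact intervals that cover counting error only. Replicate 1 lies above replicate 2 at every locus shown, and Mirlet7g and Mirlet7i lie far above Mirlet7b, Mirlet7a-2 and Mirlet7c-1.

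Levels were set beside the likeness of each 5′ arm to other hairpins, measured as the fewest mismatches to any other of the 1005 mouse hairpins of the table. Mirlet7g, Mirlet7d and Mir98, each with 649 counts or more in both libraries, differed from the nearest hairpin by 2 mismatches. Mirlet7b differed by only 1 mismatch from both let-7c hairpins and had 26 and 12 counts. Mirlet7a-2 and Mirlet7c-1 had 0 mismatches to another hairpin and 31 to 48 counts. Level did not follow likeness throughout. Mirlet7i had 1 mismatch, to the hairpin of let-7j, and the second highest level. Of the other let-7 loci, Mirlet7f-2 had 0 mismatches and 323 and 282 counts. Mirlet7j had 12 and 11 counts and 3 mismatches, over a listed arm of 24 bases. Over the 22 bases of the let-7i arm these hairpins differ by only 1, so the 3 mismatches rest partly on arm length. How many mismatches the mapping allowed is not given in the sources used here, and the part of this likeness in the counts was not tested.

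**Figure D2:**
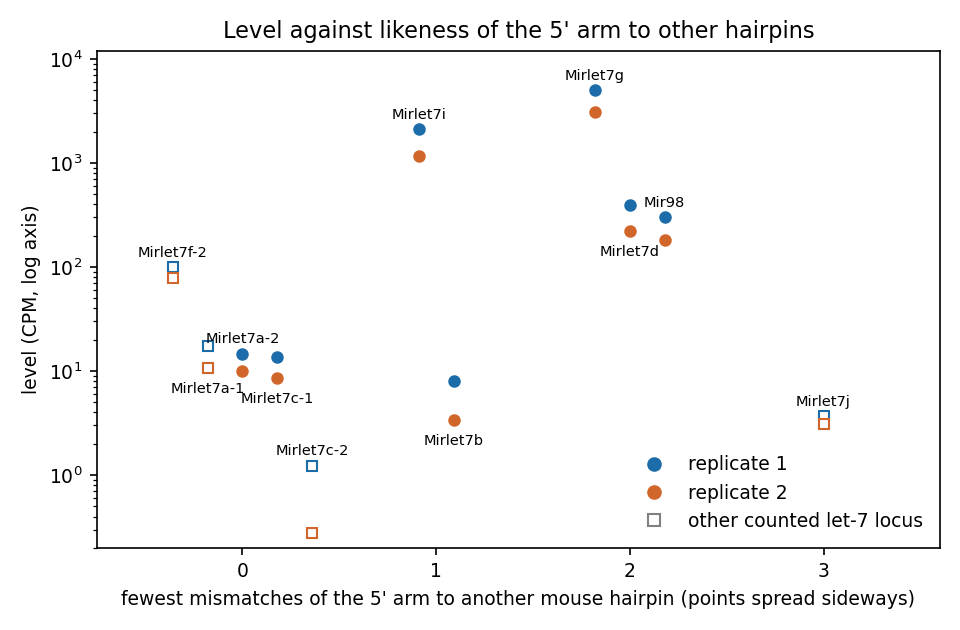
Level of the counted let-7 loci (CPM, log axis) in each library against the fewest mismatches of the 5′ arm to another mouse hairpin; points at the same number are spread sideways. Mirlet7g, Mirlet7d and Mir98 sit at 2 mismatches, Mirlet7i and Mirlet7b sit far apart at 1, and Mirlet7a-2 and Mirlet7c-1 sit at 0. The arm of Mirlet7j, at 3, is longer than the others, with 24 bases.

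Of the other let-7 loci, 5 were counted. Mirlet7f-2, which neighbours Mir98, had 323 and 282 counts (99.2 and 78.9 CPM) and Mirlet7a-1, which shares its host with Mirlet7d, had 57 and 38 counts (17.5 and 10.6 CPM). Both are lower limits, as reads of a whole arm shared with another hairpin were tallied apart. Mirlet7f-2 shares 1 arm in this way, as Mirlet7a-2 does, and Mirlet7a-1 shares both of its arms. Mirlet7c-2, whose 2 arms likewise both recur in other hairpins, had 4 counts and 1 count. Mirlet7j had 12 and 11 counts, and its listed arm carries another seed, GAGGUAU. Mirlet7k had 0 counts in both libraries, which allows up to 0.921 CPM in replicate 1 and 0.839 CPM in replicate 2. Mirlet7e and Mirlet7f-1 were not analysed here. The opposite strand held no count at 6 of the 7 loci, and at Mirlet7b it held 2 counts in replicate 1 and 1 count in replicate 2.

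The 7 loci together held 25501 counts in replicate 1, or 0.783% of the gene counts (95% exact interval 0.774 to 0.793), and 16728 counts in replicate 2, or 0.468% (0.461 to 0.475), a mean of 0.626% ± 0.223 (SD, n = 2). Set against the reads with several possible places, these let-7 counts come to 0.989% of that number in replicate 1 and 0.602% in replicate 2. How many of the unassigned reads are let-7a, let-7c or let-7f is not known from the counts, so neither the family's total nor its full order can be read from them. Mirlet7g made up 63.6% of the counts of the 7 loci in replicate 1 (63.0 to 64.2) and 66.2% in replicate 2 (65.5 to 66.9). Mirlet7i made up 27.1% (26.5 to 27.6) and 24.8% (24.1 to 25.4). For both, the intervals of the libraries did not overlap. The shares of Mir98, 3.87% and 3.88%, and of Mirlet7d, 5.0% (4.74 to 5.27) and 4.70% (4.39 to 5.04), had overlapping intervals.

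**Figure D3:**
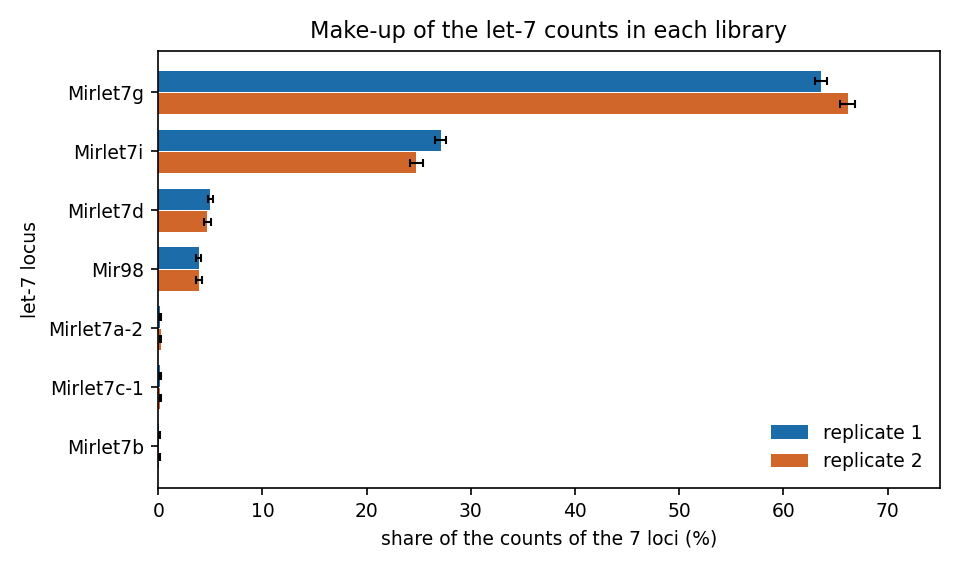
Share of each locus in the summed counts of the 7 loci (%) in replicate 1 and replicate 2; bars start at 0 and whiskers are 95% exact intervals for counting error. Mirlet7g holds 63.6% and 66.2% and Mirlet7i 27.1% and 24.8%, while Mirlet7a-2, Mirlet7c-1 and Mirlet7b are barely visible.

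Each of the 7 loci had a larger CPM in replicate 1 than in replicate 2, and 5 passed the test of that difference. The test was an exact binomial test, two-sided, of how a gene's counts split between the libraries, with TMM scaling and Benjamini-Hochberg adjustment over 401 genes. Of the 7 loci, 5 were called higher in replicate 1 and none lower. The test called 43.4% of all those genes different, 19.7% higher and 23.7% lower in replicate 1, so a call was common in this comparison. The median log2 ratio of replicate 1 over replicate 2 was 0.71 over the 7 loci and −0.03 over all genes tested, where its median absolute value was 0.17.

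Mirlet7i was 1.79-fold higher in replicate 1, a log2 ratio of 0.84 (95% exact interval 0.79 to 0.90, adjusted p = 1.3e-198, exact binomial test). Mirlet7g was 1.57-fold higher, at 0.65 (0.62 to 0.69, adjusted p = 6.1e-300, exact binomial test). The intervals of these 2 loci did not overlap, and among the 21 pairs of loci this was the only such pair. Mirlet7d had a log2 ratio of 0.80 (0.67 to 0.93) and Mir98 of 0.71 (0.56 to 0.85), and both passed. Mirlet7b also passed, at 1.19 (0.18 to 2.34, adjusted p = 0.034, exact binomial test), on 26 against 12 counts. Mirlet7c-1, at 0.60 (−0.09 to 1.32), and Mirlet7a-2, at 0.51 (−0.13 to 1.18), did not pass. Their intervals include 0 as well as the ratios of Mirlet7g and Mirlet7i, so these counts do not tell no difference from one as large as that of Mirlet7g or Mirlet7i.

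The binomial test covers counting error only. With the spread over all genes included, through a biological coefficient of variation of 14.0% from the same 2 libraries, edgeR's negative binomial exact test called 0 of the 7 loci (adjusted p from 0.22 to 1). It left 5 of them, and 22 of the 401 genes, under an unadjusted p of 0.05. After adjustment it called 4 genes of the 401, or 0.998%. Its dispersion came from the same libraries and holds any difference between them, so a miss by this test does not show that a locus did not differ. Higher in replicate 1 by that test were 0 of the 7 loci and 0.249% of all genes.

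**Figure D4:**
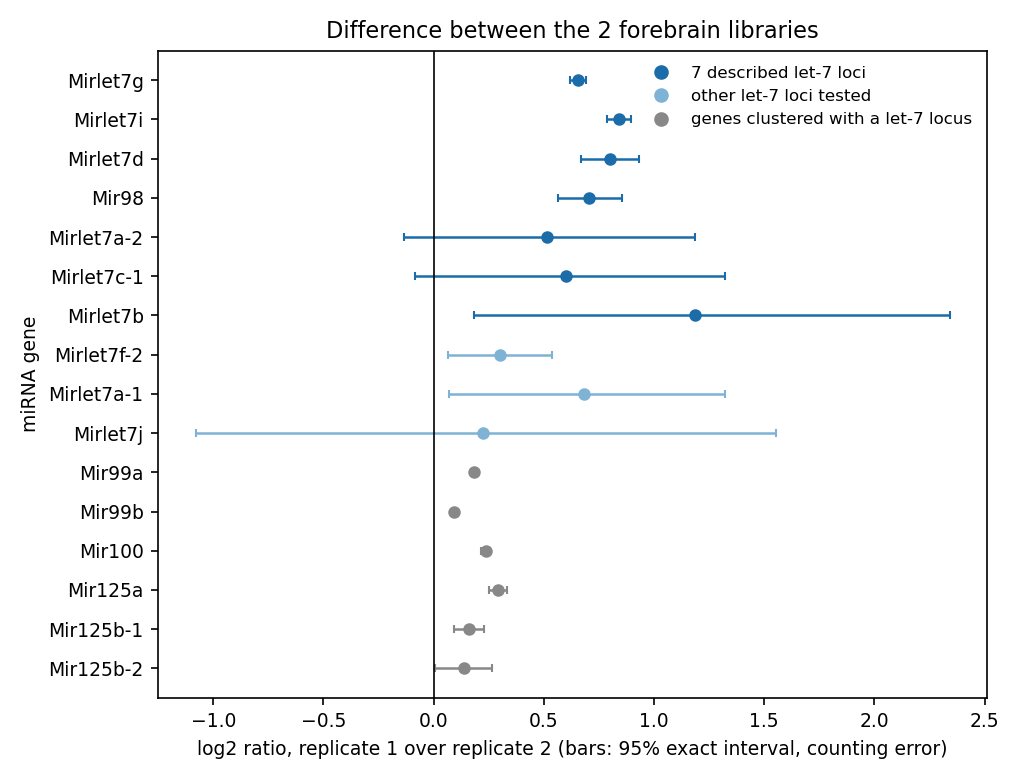
Log2 ratio of replicate 1 over replicate 2 with 95% exact intervals (counting error) for the 7 loci, the other let-7 loci tested and the genes clustered with a let-7 locus. Mirlet7g, Mirlet7i, Mirlet7d and Mir98 lie between 0.65 and 0.84, the clustered genes between 0.09 and 0.29, and Mirlet7b, Mirlet7a-2 and Mirlet7c-1 have wide bars.

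Of the 271 genes whose mean count reached 100, 7 had a ratio at least that of Mirlet7g. They were Mirlet7g, Mirlet7i, Mirlet7d and Mir98 themselves and 3 genes outside the family, Mir449a, Mir135a-2 and Mir219a-2. Mirlet7g was taken as the cut because its ratio was the lowest of these 4 let-7 loci, so their presence was fixed by that choice. Over all 401 genes tested, 22 genes, let-7 loci included, had a ratio above that of Mirlet7g. Mir449a, a miRNA of multiciliated cells, had 1.15 and was named after its values were seen. The genes whose ratio came nearest to 0.80, the median of the 5 loci whose 5′ arm lies in no other hairpin, were Mir135a-2 (0.80, from 587 and 362 counts), Mir219a-2 (0.72, from 310 and 202), Mir181a-2 (0.61, from 3348 and 2356), Mir29a (0.49, from 144 and 110) and Mir137 (0.45, from 1633 and 1285). This likeness is a difference in log2 ratio over only 2 libraries. Mir135a-2, Mir219a-2 and Mir181a-2 are uncertain because their mature sequences are made from several loci.

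**Figure D5:**
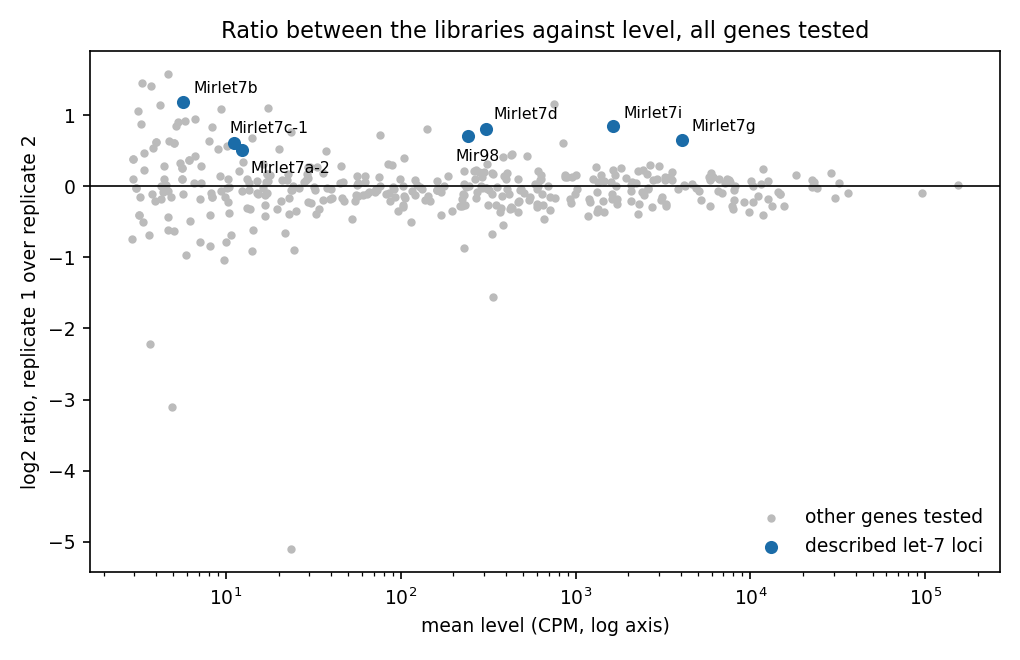
Log2 ratio of replicate 1 over replicate 2 against mean level (CPM, log axis) for the 401 genes tested; each point is a gene and the 7 loci are in blue. Near the levels of Mirlet7g and Mirlet7i the other genes lie closer to 0 than these loci do, while at the low level of Mirlet7b the other genes scatter widely.

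Genes in 1 cluster with a let-7 locus had ratios between 0.09 and 0.29, below those of Mirlet7g, Mirlet7i, Mirlet7d and Mir98. Their miRNAs belong to the miR-99/100 family and to miR-125, the relative of lin-4, the founding miRNA of the developmental timing pathway in worms. Of the 6 clustered genes 5 were higher in replicate 1 and 1 did not pass, with a median log2 ratio of 0.17. The exact binomial test called 19.7% of all genes tested higher, and the negative binomial exact test called 0 of these 6. Mir99a, beside Mirlet7c-1, had 31196 and 26882 CPM and a ratio of 0.18 (0.17 to 0.20). Mir100, beside Mirlet7a-2, had 12816 and 10650 CPM and a ratio of 0.24 (0.22 to 0.26). The wide intervals of Mirlet7a-2 and Mirlet7c-1 include these values, so the counts do not tell whether the ratios differ within either cluster. Mir125b-1 (0.16), Mir125b-2 (0.14, not passing), Mir99b (0.09) and Mir125a (0.29) lay in the same low range.

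Within the Huwe1 intron the depth was higher. Mir98 had a ratio of 0.71 (0.56 to 0.85) and Mirlet7f-2 one of 0.30 (0.06 to 0.54, adjusted p = 0.028, exact binomial test), with intervals that did not overlap. The let-7f arm also lies in the hairpin of Mirlet7f-1, so the Mirlet7f-2 value rests on the reads placed there alone. Mirlet7a-1, in the host of Mirlet7d, had 0.68 (0.07 to 1.32) and did not pass (adjusted p = 0.054, exact binomial test), and its interval includes the 0.80 of Mirlet7d. Both arms of Mirlet7a-1 recur whole in other hairpins, so its ratio rests only on the few reads placed at that locus.

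The stretch between the arms is shown for 6 of the precursors because the let-7 loop holds the motif that LIN28 is known to bind. The zinc knuckles of LIN28 recognise GGAG, in capitals, and its cold shock domain recognises a motif with GAU.

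Mirlet7g: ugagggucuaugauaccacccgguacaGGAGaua
Mirlet7i: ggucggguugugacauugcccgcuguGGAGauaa
Mirlet7d: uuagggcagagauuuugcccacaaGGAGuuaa
Mirlet7b: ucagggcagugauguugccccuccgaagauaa
Mirlet7a-2: uagaguuacaucaagGGAGauaa
Mirlet7c-1: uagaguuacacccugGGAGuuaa

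GGAG was found in 5 of these 6 stretches, those of Mirlet7g, Mirlet7i, Mirlet7d, Mirlet7a-2 and Mirlet7c-1, ending 3 or 4 bases before the 3′ arm. Mirlet7b holds no GGAG in this window. GAU was found in 5 stretches, all but that of Mirlet7c-1, and in 3 of them, those of Mirlet7g, Mirlet7d and Mirlet7b, at a place that shares no base with GGAG. Only the RNA strand was searched. Among 643 hairpins with 2 listed arms, 8.09% hold GGAG and 15.6% hold GAU between the arms. For the 52 whose stretch is as long as those of the let-7 loci, the shares are 25% (13 hairpins) and 30.8% (16 hairpins). Of the 11 let-7 loci searched, 9 hold GGAG and 9 hold GAU, and all 11 but Mirlet7a-2 are among the 52. Much of these shares thus comes from the family itself, and they are not a background apart from it. Loci with GGAG ranged in mean level from Mirlet7g, the highest, to Mirlet7c-1, and in log2 ratio from 0.51 to 0.84. Mirlet7b, without it, had a ratio of 1.19, with an interval (0.18 to 2.34) that overlapped those of all 5 loci with GGAG.

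Marker miRNAs of stages and cell types were set beside the let-7 loci. Higher and lower refer to calls of the exact binomial test, which depend on depth. Over all genes tested, it called 19.7% higher and 23.7% lower in replicate 1. The negative binomial exact test called 0 genes of these lists. Early embryo miRNAs, of the miR-302 and miR-290 clusters of pluripotent cells, had 27580 summed CPM in replicate 2 and 22630 in replicate 1. Of the 14 listed 12 were counted, and of the 11 tested, 4 were lower in replicate 1 and none higher, with a median log2 ratio of −0.28. The 4 were Mir302a, Mir302b, Mir302c and Mir302d, neighbours in the miR-302 cluster. No gene tested from the miR-290 cluster passed, with log2 ratios from −0.31 for Mir295 to 0.06 for Mir294. Mir302a had 8710 and 10946 CPM and Mir302d 7167 and 8540 CPM in replicates 1 and 2. Among neuron miRNAs, 3 of 7 tested were higher in replicate 1 and none lower, with a median of 0.31 and summed levels of 661 and 498 CPM. Mir137, which restrains proliferation of neural progenitors, had 502 and 359 CPM, most of these sums. Mir128-1, which is uncertain for its several loci, had 94.0 and 74.4 CPM. The 4 that did not pass went both ways, at 0.34 for Mir218-1, 0.01 for Mir124a-3, −0.15 for Mir124a-2 and −0.39 for Mir218-2. These 4 were named after their values were seen and are likewise uncertain for their several loci. Of the 6 miRNAs listed for progenitors and tested, 5 were higher in replicate 1, with a median of 0.17 and summed levels of 53004 and 48880 CPM. Mir130a alone held 32697 and 31134 CPM of these sums, and it was called higher at a log2 ratio of only 0.04 (0.03 to 0.05). The part of these cell types in the let-7 difference was not tested.

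Markers of cells outside the neural tube were also present. Their calls stand beside the same shares over all genes tested, 19.7% higher and 23.7% lower in replicate 1. Epithelial miRNAs had 10352 and 9076 summed CPM, and 5 of 7 were higher in replicate 1, with a median of 0.13. Their highest members were Mir429 (3326 and 2662 CPM) and Mir205 (2596 and 2604 CPM). A list of 3 vessel miRNAs had 32925 and 35270 CPM and a median of −0.12. Its endothelial member, Mir126a, was lower in replicate 1, at 29029 and 31930 CPM. Mir143, known from the smooth muscle of the vessel wall, was higher, at 3842 and 3284 CPM, and Mir145a of the same cells did not pass. Erythroid miRNAs had 661 and 760 CPM, with 1 of 2 lower in replicate 1 and none higher, a median of −0.06, and Mir451a at 601 and 707 CPM and Mir144 at 59.9 and 53.2 CPM. Hox-cluster miRNAs of hindbrain and trunk had 245 and 309 CPM, with 2 of 5 lower in replicate 1, a median of −0.46, and Mir10a at 96.1 and 133 CPM and Mir10b at 88.8 and 96.5 CPM. Mesenchyme miRNAs had 7333 and 6995 CPM, with 1 of 4 higher in replicate 1 and none lower, a median of −0.04, and Mir214 at 3840 and 3861 CPM and Mir140 at 3417 and 3058 CPM. Leukocyte miRNAs had 724 and 642 CPM, with 1 of 2 higher in replicate 1 and none lower and a median of 0.15. Mir155 had 417 and 382 CPM, Mir223 had 303 and 258 CPM, and Mir142b was at 0 on its own strand. The strand opposite Mir142b, on which the leukocyte hairpin Mir142 lies, held 4303 and 3688 counts, which are not in the leukocyte sum because Mir142 is not among the genes analysed here. The part of these cells in the let-7 difference was not tested. The let-7 loci of highest count, Mirlet7g, Mirlet7i, Mirlet7d and Mir98, had ratios above the median of each list, but not above every listed gene. The neuron miRNA Mir128-2, named after its values were seen, had a log2 ratio of 1.09 on 42 and 21 counts, above all of them. The progenitor miRNA Mir135a-2, at 0.80, lay above Mirlet7g and Mir98.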

How the data were processed

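The authors deposited raw counts of reads per miRNA gene for each of the 2 libraries, on either strand, on the strand of the gene and on the opposite strand, with 4 tallies of reads outside the genes. Per the labels, the RNA fragments were under 30 nt and reads were placed on mm10. The authors' file notes name annotation M4. Aligner, mapping settings and counting program: not given in the sources used here. Counts in the sense orientation were taken; they held 96.7% and 96.4% of the counts on either strand. The tallies, 62.0% and 63.0% of all reads, stayed out of library sizes and tests.

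Symbols and positions came from GENCODE M21 (1894 of 1973 identifiers found) and sequences from RefSeq's table for GRCm38.p6. CPM refer to the total of gene counts. Ratios are replicate 1 over replicate 2 with TMM factors of edgeR 4.0.16 (R 4.3.3), computed on the 401 genes whose mean count reached 10, and a pseudocount of 0.5 counts. The exact binomial test, two-sided, had a threshold of 0.05 after Benjamini-Hochberg adjustment. Intervals are exact Clopper-Pearson intervals at 95%. Intervals and the limit of 3 counts behind a 0 cover counting error only, since PCR copies are not independent molecules. The negative binomial alternative used edgeR's common dispersion from both libraries taken as 1 group, and another used the size factors of DESeq2 1.42.0. Tests and intervals used scipy 1.17.1 under Python 3.11.15. Tables were handled with pandas 2.3.3 and numpy 2.4.6, and plots were drawn with matplotlib 3.10.9.

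The stretch between the arms of 1 locus is not reported here and stayed out of the motif counts. The loci and lists were chosen with earlier results of these data known. Genes named are the 7 loci, other counted let-7 loci, genes clustered with a let-7 locus, the 5 genes of nearest ratio at a mean count of 100, and the 2 highest members of each list. Some other list members were named after their values were seen. The lists cover early embryo, neuron, progenitor, vessel (listed as endothelium), erythroid, mesenchyme, epithelium, Hox-cluster and leukocyte miRNAs.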

Additional observations from a re-analysis of the deposited data

How the results depend on the processing

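The 7 log2 ratios were positive under all 5 alternatives run on them (total-count scaling, DESeq2 size factors, a pseudocount of 5 counts, counts on either strand and the negative binomial exact test), 35 values in all. All of these values come from the counts of the same libraries, so they are not separate support for the direction. The same 5 loci passed with total-count scaling, DESeq2 size factors and counts on either strand. The pseudocount does not enter the test. Under edgeR's negative binomial exact test 0 loci passed and the genes called fell to 4 from 174. The other alternatives called between 163 and 182 genes. Scaled by total count or by DESeq2, 93 genes were called higher and 84 lower in replicate 1, against 79 and 95 with TMM.

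The share of the 7 loci depends on what it is a share of. It was 0.236% of all reads of a library and 0.350% of gene counts plus reads mapped to several places, against 0.626% of gene counts, and the summed level was 2355 when CPM were taken over all reads of the library, against 6256. Leaving out a replicate gave 0.468% to 0.783%. No paired analysis was possible because the 2 libraries form 1 group. Depth limits Mirlet7b, Mirlet7a-2 and Mirlet7c-1, whose counts were 12 to 48.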
